A study of Homo sapiens with 12 samples.

Results

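This account concerns 33 genes of the contractile actin cytoskeleton, of serum response factor (SRF) and of the YAP transcriptional co-activator, in cultures depleted of ZCCHC17, a zinc knuckle protein that binds RNA. The genes were found by symbol in a table of raw counts with 59653 genes: smooth muscle contractile genes, general actin-binding genes, SRF and its coactivators, 3 pericyte genes and 5 direct YAP targets. The 35 names searched include older synonyms of CCN1 and CCN2, which the table lists under their current names. The cells were neurons made by way of induced pluripotent cells from IMR-90, a human fibroblast line, so every library stems from 1 line. There were 6 libraries with negative control siRNA (siNC) and 6 with siRNA against ZCCHC17 (siZCC). The titles add NPC, which no label explains. Nothing in the labels says that the replicates were grown separately, so p-values measure the spread between these libraries, which may be technical.

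Contractile force in animal cells comes from myosin motors pulling on actin filaments. Smooth muscle and pericytes, the contractile cells of vessel walls, carry dedicated forms of these proteins, while most other cells use the general forms for shape and adhesion. SRF is a transcription factor that binds the CArG box in the promoters of many of these genes, and its MRTF coactivators enter the nucleus when free actin monomers fall. YAP, held in the cytoplasm by the kinases of the Hippo pathway, acts in the nucleus with TEAD factors on genes such as CCN1, CCN2 and ANKRD1, and it also responds to tension in the actin skeleton. In neural cultures many of the smooth muscle forms are low in neurons and are better known from mesenchymal cells, pericytes and reactive or flat glial cells.

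The library totals ranged from 76115083 to 120023356 counts. Levels are CPM, counts relative to a library total scaled by its TMM factor, and changes are log2 fold changes of siZCC against siNC with their standard error (SE). A gene is called changed at a Benjamini-Hochberg adjusted p under 0.05 over the 24671 genes tested. ZCCHC17 itself stood at 54.0, 57.2 and 61.0 CPM (lowest, median and highest of 6) in siNC and at 9.37, 9.85 and 10.6 CPM in siZCC, so each library matched its label (log2 fold change -2.51, SE 0.0402, edgeR adjusted p 3.52e-17). Neuron markers were present: the 12 of them summed to between 3622 and 4082 CPM in siNC and between 3272 and 3735 CPM in siZCC, although RBFOX3, a marker of mature neurons, had a median of 1.25 CPM in siNC and 1.18 CPM in siZCC. The 11 astroglial and radial glial markers, led by VIM, summed to between 6747 and 7210 CPM in siNC and 6907 to 7686 CPM in siZCC.

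Promoter sequences show where the named factors could act on these genes. RefSeq windows on GRCh38.p14, from 250 bases before to 50 bases after an annotated start, were available for 27 of the 33 genes. TAGLN, MYH11, MYL9, DES, MYOCD and CCN1 had no window and were not searched. A CArG box was taken as CC, any 6 of A and T, then GG, which reads the same on both strands, and the TEAD core as GGAATG on either strand (CATTCC when read on the other). The CArG box was in the windows of 7 of the 27 genes (25.9%), against 438 of 27305 genes in all (1.6%). It occurred in ACTG2, SRF, ACTN1, TGFB1I1, CNN2, TPM4 and FLNA. Near matches were neither counted nor marked, such as ccctatatgg and ccttgtttgg in the ACTA2 window and ctaaatttgg in the LMOD1 window. A gene without a match may therefore still hold a similar sequence. The TEAD core was in windows of 13 of the 27 genes (48.1%), against 16.7% of all genes. A gene can have several windows, and the 27 genes had 47, against 35116 windows for the 27305 genes. Counted by window, the CArG box was in 14.9% of the members' windows against 1.29% of all windows. The TEAD core was in 29.8% against 14%. These are matches of letters, not measured binding, and the genes were assembled as targets of these factors.

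The windows below belong to the 6 genes with the smallest p-values among the genes called in the comparison that hold a match. CCN2 was added after its window was seen, because it holds the most TEAD cores. Capitals mark the CArG box or the TEAD core, and each window is written in the direction of transcription. They lie at chr1:201946499-201946798 (LMOD1, minus strand), chr10:88952724-88953023 (ACTA2, minus strand), chr19:1026358-1026657 (CNN2, plus strand), chr14:68977517-68977816 (ACTN1, minus strand), chr6:43171019-43171318 (SRF, plus strand), chr3:134374398-134374697 (AMOTL2, minus strand) and chr6:131951323-131951622 (CCN2, minus strand).
LMOD1: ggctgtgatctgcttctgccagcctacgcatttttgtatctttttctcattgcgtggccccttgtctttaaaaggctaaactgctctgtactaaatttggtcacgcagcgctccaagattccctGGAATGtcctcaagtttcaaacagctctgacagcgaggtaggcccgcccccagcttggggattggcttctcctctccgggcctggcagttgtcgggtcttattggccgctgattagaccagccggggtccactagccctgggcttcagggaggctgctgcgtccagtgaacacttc
ACTA2: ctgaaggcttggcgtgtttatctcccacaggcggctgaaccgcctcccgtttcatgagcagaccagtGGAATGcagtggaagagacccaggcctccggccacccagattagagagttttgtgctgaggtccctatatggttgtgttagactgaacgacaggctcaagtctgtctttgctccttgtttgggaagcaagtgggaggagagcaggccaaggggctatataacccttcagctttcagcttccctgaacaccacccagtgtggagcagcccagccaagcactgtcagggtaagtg
CNN2: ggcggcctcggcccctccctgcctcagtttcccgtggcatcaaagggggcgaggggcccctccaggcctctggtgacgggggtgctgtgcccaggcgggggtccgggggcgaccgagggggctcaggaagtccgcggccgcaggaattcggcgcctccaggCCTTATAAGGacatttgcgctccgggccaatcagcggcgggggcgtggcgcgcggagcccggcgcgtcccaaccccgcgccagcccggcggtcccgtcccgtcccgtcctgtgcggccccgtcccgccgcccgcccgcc
ACTN1: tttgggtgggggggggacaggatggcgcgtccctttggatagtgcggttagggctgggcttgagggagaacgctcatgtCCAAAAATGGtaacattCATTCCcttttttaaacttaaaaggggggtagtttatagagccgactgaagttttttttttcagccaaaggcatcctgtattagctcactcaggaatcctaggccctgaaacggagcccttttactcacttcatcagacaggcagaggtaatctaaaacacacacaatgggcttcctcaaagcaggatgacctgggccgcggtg
SRF: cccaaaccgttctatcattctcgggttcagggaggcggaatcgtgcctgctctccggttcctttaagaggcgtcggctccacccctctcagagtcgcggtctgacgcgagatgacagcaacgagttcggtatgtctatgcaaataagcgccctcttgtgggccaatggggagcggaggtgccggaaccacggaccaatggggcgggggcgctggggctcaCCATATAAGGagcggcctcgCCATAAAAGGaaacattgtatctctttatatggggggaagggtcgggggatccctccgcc
AMOTL2: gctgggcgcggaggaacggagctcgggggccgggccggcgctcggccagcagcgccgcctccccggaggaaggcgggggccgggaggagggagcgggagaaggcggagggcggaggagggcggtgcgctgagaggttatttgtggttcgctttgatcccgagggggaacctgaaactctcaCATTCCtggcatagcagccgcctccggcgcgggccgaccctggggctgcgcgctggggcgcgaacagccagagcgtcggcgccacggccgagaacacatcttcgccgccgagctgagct
CCN2: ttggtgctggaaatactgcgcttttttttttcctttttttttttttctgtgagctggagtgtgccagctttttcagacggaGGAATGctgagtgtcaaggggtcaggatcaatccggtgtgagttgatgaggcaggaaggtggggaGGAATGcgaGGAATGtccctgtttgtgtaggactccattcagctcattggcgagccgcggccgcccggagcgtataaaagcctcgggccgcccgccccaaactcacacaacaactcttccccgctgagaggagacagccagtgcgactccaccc
The CCN2 window holds 3 TEAD cores, beginning 169, 104 and 95 bases before the start. SRF has a pair of CArG boxes in its own window, beginning 30 and 10 bases before the start. ACTN1 holds 1 CArG box, 171 bases before the start, and 1 TEAD core that begins 154 bases before it. No CArG box and TEAD core overlapped in any of these windows.

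Of the 32 genes tested, 18 were lower and 1 was higher in siZCC, while 13 were not called. Among all genes tested, 22.2% were called, 10.8% as lower and 11.4% as higher. The median log2 fold change of the 32 genes was -0.20, and that of all genes was -0.0016. Most of these genes are well expressed, and abundant genes are called more often. With the mean level required to reach 10 CPM, 14.6% of genes were lower and 17.3% higher, with a median of 0.0037, while 16 of the 25 members at that level were lower and 1 was higher, with a median of -0.19. The levels of siZCC lay entirely below those of siNC in 8 members and entirely above in 1 (PDGFRB). The groups did not overlap in 9.74% of all genes, with siZCC below in 4.5%. In bulk RNA, fewer cells of a type and less RNA per cell cannot be told apart, and this holds for each value here.

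**Figure D1:**
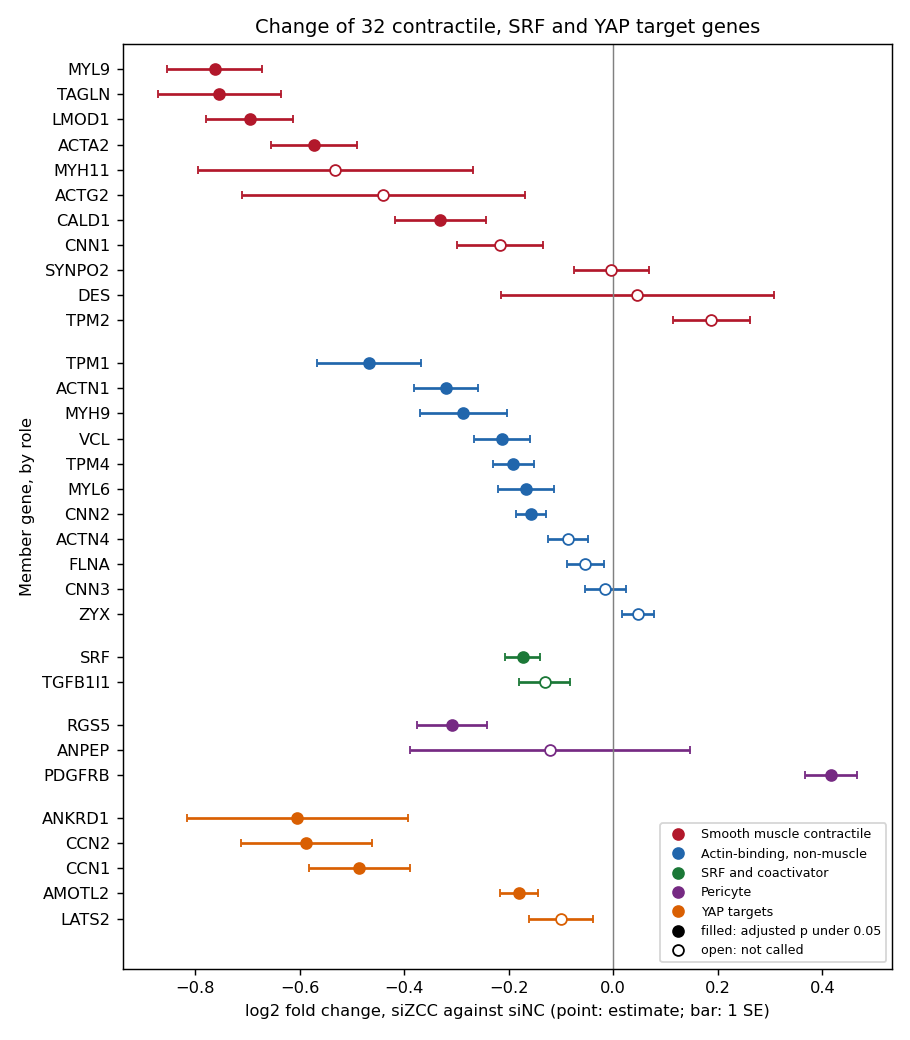
Log2 fold change of siZCC against siNC (horizontal axis) for the 32 genes tested, sorted by role, with bars of 1 SE; filled points have an adjusted p under 0.05. The changes run from -0.76 for MYL9 to 0.42 for PDGFRB, and 28 of the 32 estimates are below 0.

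Of the 11 genes listed as smooth muscle contractile, 5 were lower (MYL9, TAGLN, LMOD1, ACTA2 and CALD1), 0 were higher, and the median log2 fold change was -0.44. MYL9, TAGLN and LMOD1 had the 3 most negative estimates of the 32 genes. MYL9, the regulatory light chain that switches on smooth muscle myosin when phosphorylated, stood at 38.3, 49.1 and 64.3 CPM (lowest, median and highest) in siNC and at 26.7, 30.1 and 33.2 CPM in siZCC. Every siZCC library was below every siNC library. The change was -0.76 (SE 0.0914, edgeR adjusted p 2.33e-05), or 58.9% of the siNC mean. TAGLN, or transgelin, an actin-binding protein long used as an early marker of smooth muscle, ran at 118, 169 and 198 CPM in siNC and at 77.0, 101 and 115 CPM in siZCC. The gap between the groups was narrow, from 115 to 118 CPM, because siNC replicate 5 was low. Its change was -0.75 (SE 0.118, edgeR adjusted p 2.54e-04).

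LMOD1, leiomodin, starts new actin filaments in smooth muscle. It ran at 11.6, 13.9 and 15.4 CPM in siNC and at 7.15, 8.44 and 10.5 CPM in siZCC, without overlap, and changed by -0.70 (SE 0.0836, edgeR adjusted p 2.39e-05). ACTA2, the smooth muscle alpha-actin that marks contractile pericytes and myofibroblasts, ran at 174, 216 and 241 CPM in siNC and at 116, 149 and 164 CPM in siZCC. The groups did not overlap, and the lowest control was again siNC replicate 5. ACTA2 changed by -0.57 (SE 0.0821, edgeR adjusted p 1.23e-04), to 67.2% of the control level. CALD1, caldesmon, which holds actin and myosin apart until calcium signals, ran at 349, 418 and 479.9 CPM in siNC and at 271, 333 and 383 CPM in siZCC. Here the groups overlapped, and the change was -0.33 (SE 0.0871, edgeR adjusted p 0.0117).

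**Figure D2:**
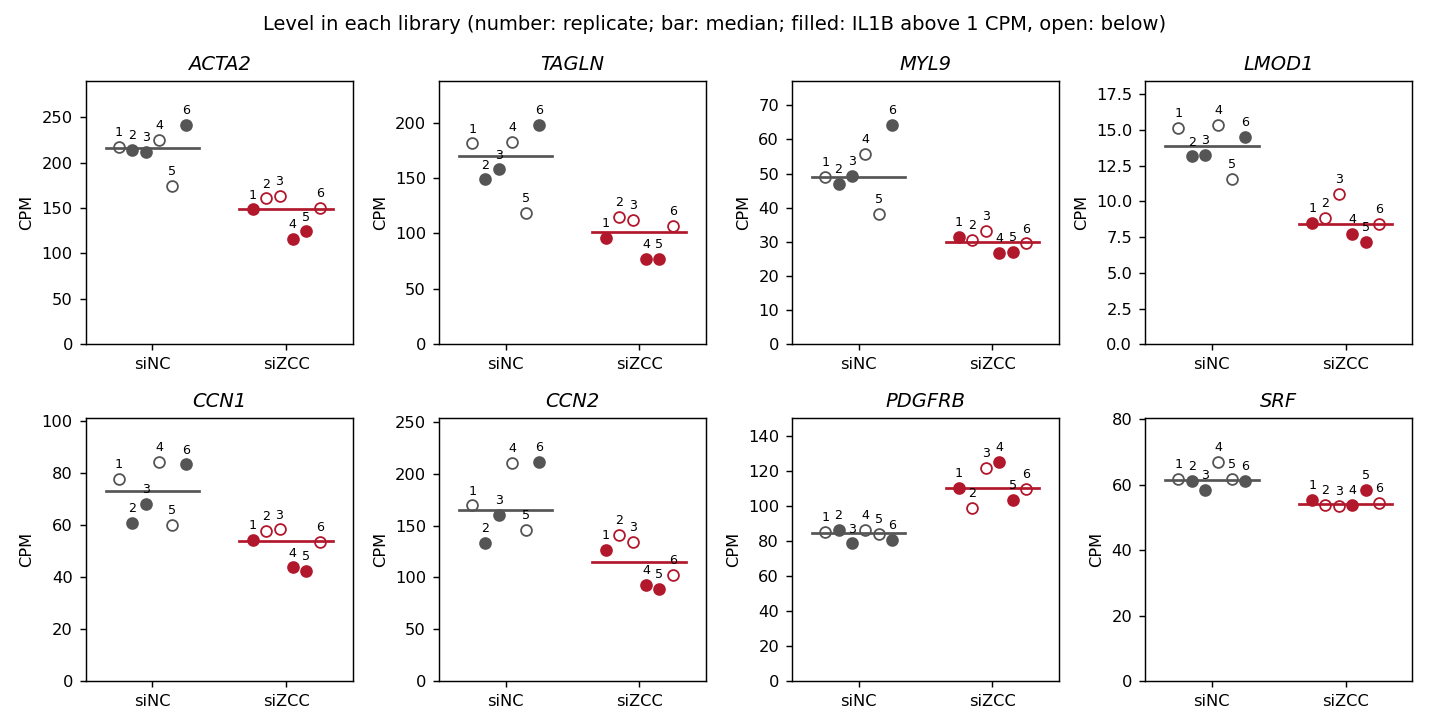
CPM in each library for 8 of the genes, with 6 siNC libraries in grey and 6 siZCC libraries in red; numbers are replicates, horizontal bars are medians, and filled points are libraries with IL1B above 1 CPM. ACTA2, TAGLN, MYL9, LMOD1, CCN1 and PDGFRB separate completely, while CCN2 and SRF overlap between the groups.

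The other 6 smooth muscle genes were not called. ACTG2, the smooth muscle gamma-actin, scattered widely within both groups, at 13.2, 21.7 and 28.8 CPM in siNC and 6.72, 14.4 and 28.0 CPM in siZCC (log2 fold change -0.44, SE 0.271, edgeR adjusted p 0.271). CNN1, calponin, lay between 7.32 and 10.9 CPM over all libraries and had an estimate of -0.22 (edgeR adjusted p 0.0662). TPM2, the beta-tropomyosin of muscle, had the opposite sign, 0.19 (edgeR adjusted p 0.0764), with 20.9 to 28.7 CPM in siNC and 24.6 to 31.5 CPM in siZCC. SYNPO2, an actin-bundling protein, was at -0.0034 with levels of 2.37 to 2.88 CPM. MYH11, the myosin heavy chain specific to mature smooth muscle, reached at most 2.21 CPM, and DES, the intermediate filament desmin, at most 0.256 CPM. MYH11 and DES rested on 6 to 260 counts in a library, against at least 5766 for ACTA2, TAGLN and CALD1.

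Of the 11 general actin-binding and non-muscle contractile genes tested, 7 were lower, 0 were higher, and the median was -0.17. TPM1, an alpha-tropomyosin that winds along actin filaments, had the largest change of this group, -0.47 (SE 0.0989, edgeR adjusted p 0.00275). It ran at 196, 243 and 280.1 CPM in siNC and at 139, 174 and 204 CPM in siZCC. The highest siZCC library exceeded the lowest siNC library. ACTN1, the alpha-actinin that crosslinks actin bundles at adhesions, ran at 224, 266 and 289.7 CPM in siNC and at 188, 215 and 232 CPM in siZCC. Its ranges touched over 224 to 232 CPM, and the change was -0.32 (SE 0.0608, edgeR adjusted p 0.00125). MYH9, the heavy chain of non-muscle myosin IIA, changed by -0.29 (SE 0.0831, edgeR adjusted p 0.0199), from 321, 378 and 427 CPM to 262, 310.3 and 361 CPM. The MYH9 call was lost without siNC replicate 1 (adjusted p 0.0517) and without siZCC replicate 4 (0.0547).

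VCL, vinculin, which ties actin to integrin adhesions, ran at 218, 236 and 261 CPM in siNC and at 187, 201 and 229.6 CPM in siZCC (log2 fold change -0.21, SE 0.0531, edgeR adjusted p 0.0083). TPM4, a non-muscle tropomyosin, ran at 254, 284 and 293 CPM in siNC and at 225, 243 and 258 CPM in siZCC (-0.19, SE 0.0396, edgeR adjusted p 0.00234). The TPM4 groups overlapped over 254 to 258 CPM and the VCL groups over the wider band of 218 to 229.6 CPM. CNN2, the calponin of non-muscle cells, was the only gene of this group to separate completely, at 161, 169.6 and 179 CPM in siNC and 146, 152 and 156 CPM in siZCC. The CNN2 change was small, -0.16, but its SE of 0.0283 was the smallest of all members (edgeR adjusted p 8.25e-04). MYL6, the essential light chain shared by smooth and non-muscle myosin, ran at 359, 392 and 461 CPM in siNC and at 324, 363 and 378 CPM in siZCC (-0.17, SE 0.0533, edgeR adjusted p 0.0322). Leaving out any of siNC replicates 2 and 3 and siZCC replicates 1, 2 and 4 ended the MYL6 call, with adjusted p up to 0.0763.

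The remaining 4 genes of this group were abundant and were not called. FLNA, filamin A, which links actin into networks, ran at 1587, 1674 and 1782 CPM in siNC and at 1555, 1589 and 1746 CPM in siZCC (-0.054, SE 0.0352). CNN3, the calponin form found in brain, ran at 374, 409 and 421 CPM in siNC and at 373, 398 and 438 CPM in siZCC (-0.015, SE 0.0395). ACTN4, the other non-muscle alpha-actinin, ran at 385, 423 and 449 CPM in siNC and at 379, 395 and 416 CPM in siZCC (-0.086, SE 0.0379). ZYX, zyxin, an adhesion protein that responds to stretch, ran at 165, 172 and 184 CPM in siNC and at 169.8, 178 and 188 CPM in siZCC (0.047, SE 0.0312). Their edgeR adjusted p ran from 0.116 to 0.827, and the groups overlapped for each of the 4.

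Per kilobase of exon, which allows genes to be compared, the most abundant members in siNC were FLNA (158 CPM per kilobase), CNN3 (143), MYL6 (86.9), CCN2 (73.5), ACTA2 (71.9) and ACTN4 (68.9). In siZCC the level of FLNA was 153, of CNN3 141, of MYL6 77.4 and of ACTN4 64.9 CPM per kilobase, while CCN2 stood at 48.9 and ACTA2 at 48.3. CCN2 and ACTA2 were therefore above ACTN4 in the controls and below it in siZCC. DES, MYH11 and MYOCD were the lowest in siNC, at 0.0734, 0.0659 and 0.00204 CPM per kilobase. These are means of 6 libraries, and the order of neighbouring genes was not tested.

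Of the transcription factors in the set, SRF itself was slightly lower. It ran at 58.3, 61.5 and 67.1 CPM in siNC and at 53.6, 54.1 and 58.4 CPM in siZCC. Only the highest siZCC library, replicate 5, reached the lowest siNC library. The change was -0.17 (SE 0.0337, edgeR adjusted p 0.00147), to 88.7% of the control. MYOCD, myocardin, the SRF coactivator that drives the mature smooth muscle program, had between 0 and 5 counts in a library and did not pass the filter. TGFB1I1, or Hic-5, an adhesion protein that also acts as a nuclear coactivator, ran at 50.6, 58.2 and 60.9 CPM in siNC and at 48.1, 51.5 and 56.6 CPM in siZCC, and was not called (-0.13, SE 0.0482, edgeR adjusted p 0.0598).

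Outside the set, the SRF coactivators MRTFA (-0.016, SE 0.0278, edgeR adjusted p 0.738) and MRTFB (-0.049, SE 0.0515, edgeR adjusted p 0.543) were not called. Lower levels were found for TPM3, a further tropomyosin, at -0.19 (SE 0.0302, edgeR adjusted p 2.49e-04), and for MYLK, the kinase that phosphorylates the light chain MYL9, at -0.45 (SE 0.0823, edgeR adjusted p 8.98e-04). MYLK ran at 21.3, 24.6 and 28.7 CPM in siNC and at 15.4, 17.4 and 21.8 CPM in siZCC. The immediate early genes, which SRF controls through its other partners, had 0 higher and 4 lower of 9 tested, with a median of -0.069. The lower genes with the smallest p were EGR2 (-0.37, SE 0.0825, edgeR adjusted p 0.00403) and FOSB (-0.42, SE 0.0961, edgeR adjusted p 0.005), both under 5 CPM.

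The YAP targets in the set all had negative estimates, and 4 of 5 were called lower, with a median of -0.49. CCN2, a secreted matrix protein formerly called CTGF and a standard readout of YAP, ran at 134, 165 and 212 CPM in siNC and at 88.7, 115 and 141 CPM in siZCC. The lowest siNC library, replicate 2, lay below the highest siZCC library, replicate 2. CCN2 changed by -0.59 (SE 0.126, edgeR adjusted p 0.00305). CCN1, its relative formerly called CYR61, ran at 59.98, 73.1 and 84.5 CPM in siNC and at 42.3, 54.0 and 58.4 CPM in siZCC. The groups did not overlap, by a margin of under 2 CPM, and the change was -0.49 (SE 0.0958, edgeR adjusted p 0.00166).

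ANKRD1, an ankyrin repeat protein induced by stretch, had the largest estimate of the YAP targets and the least certain one, -0.60 (SE 0.211, edgeR adjusted p 0.0487). It ran at 6.24, 10.8 and 12.8 CPM in siNC and at 3.57, 6.55 and 9.27 CPM in siZCC. Its call was lost with DESeq2 (adjusted p 0.0806), with limma voom (0.0611), and on leaving out any of siNC replicates 1, 3, 4 and 6 or siZCC replicates 1, 4, 5 and 6, where it was at most 0.111. AMOTL2, an angiomotin that binds YAP and is also its target, ran at 101, 106 and 115 CPM in siNC and at 89.5, 95.9 and 97.6 CPM in siZCC. It separated completely with a change of -0.18 (SE 0.036, edgeR adjusted p 0.00177). LATS2, a Hippo kinase that is itself induced by YAP, lay between 17.9 and 22.0 CPM in siNC and 17.2 and 21.4 CPM in siZCC and was not called (-0.10, SE 0.0607, edgeR adjusted p 0.263).

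Further YAP targets that are not members did not share one direction: of 17 tested, 3 were higher and 2 lower, with a median of -0.017. The smallest p-values were those of FJX1 (0.19, SE 0.0306, edgeR adjusted p 3.85e-04) and NUAK2 (-0.24, SE 0.0464, edgeR adjusted p 0.0016). AXL (0.066, SE 0.0452) and F3 (0.028, SE 0.0588), both widely used YAP targets, were not called (edgeR adjusted p 0.328 and 0.787). Of 17 Hippo pathway genes, 2 were higher and 4 lower, with a median of 0.032. YAP1 was not called (0.083, SE 0.0368, edgeR adjusted p 0.117), while its relative WWTR1, or TAZ, was lower by a small amount (-0.20, SE 0.0586, edgeR adjusted p 0.0201). WWC1, or KIBRA, an activator of the Hippo kinases, was higher (0.26, SE 0.031, edgeR adjusted p 2.12e-05). TEAD4, a DNA-binding partner of YAP, was lower (-0.60, SE 0.126, edgeR adjusted p 0.00261) at no more than 3.85 CPM. Its relatives TEAD1, TEAD2 and TEAD3 were more abundant, at medians of 149, 64.4 and 49.5 CPM in siNC. Their estimates of 0.14, 0.032 and 0.076 were not called (edgeR adjusted p 0.117, 0.568 and 0.127).

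**Figure D3:**
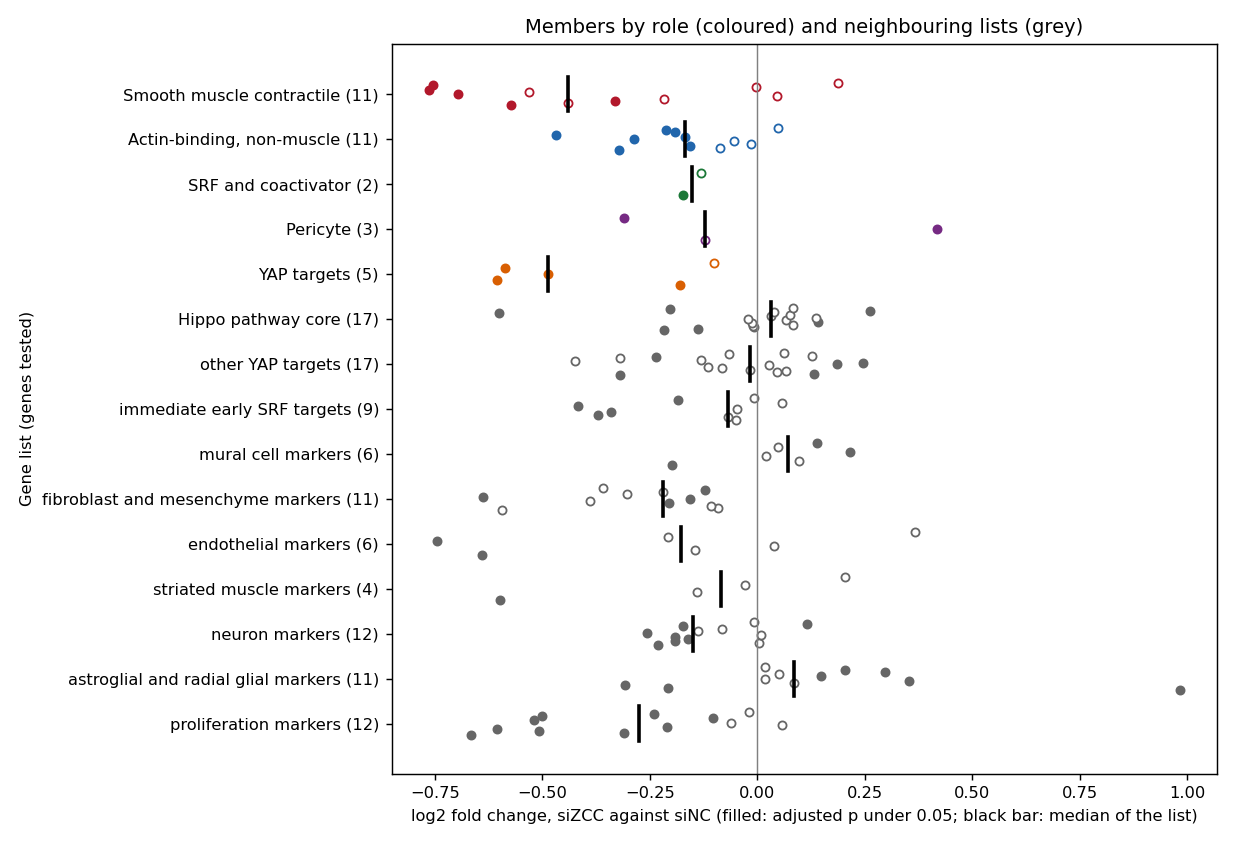
Log2 fold change of each gene tested (horizontal axis) in the 5 roles of the set (coloured) and in lists of related genes and cell type markers (grey); filled points have an adjusted p under 0.05 and black bars are medians. The smooth muscle genes and YAP targets of the set have medians of -0.44 and -0.49, while the other YAP targets, the Hippo genes and the mural cell markers have medians of -0.017, 0.032 and 0.072.

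Of the 3 pericyte genes, 1 was higher, 1 lower and 1 was not called. PDGFRB, the receptor through which pericytes are recruited to vessels, was the only member that was higher in siZCC. It ran at 78.5, 84.6 and 86.5 CPM in siNC and at 98.8, 110.01 and 125 CPM in siZCC, with every siZCC library above every siNC library. The change was 0.42 (SE 0.0498, edgeR adjusted p 2.25e-05), or 1.34-fold. RGS5, a regulator of G-protein signalling used as a pericyte marker, ran at 8.74, 10.4 and 11.9 CPM in siNC and at 7.85, 8.14 and 8.72 CPM in siZCC. It separated by a margin of 0.02 CPM, with a change of -0.31 (SE 0.067, edgeR adjusted p 0.00326). ANPEP, an aminopeptidase on pericytes and myeloid cells, reached at most 1.42 CPM and was not called.

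Markers of cell types that could carry these genes moved as follows. Of 6 further mural cell markers tested, 2 were higher (MCAM at 0.22 and NOTCH3 at 0.14 on the log2 scale) and 1 lower (ABCC9 at -0.20), with a median of 0.072. The NOTCH3 call was lost without siZCC replicate 3 (adjusted p 0.0525) and with a correction for GC content and length (0.0826, adjusted p 0.108). The sum over 8 mural cell markers ran from 467 to 525 CPM in siNC and from 521 to 579.8 CPM in siZCC. Most of it came from NOTCH3, at a median of 364 CPM in siNC. COX4I2 was at 0 in every library and HIGD1B had at most 2 counts in a library. Of 11 fibroblast and mesenchyme markers tested, 0 were higher and 4 lower, among them PDGFRA at -0.64 and LUM at -0.16, with a median of -0.22. The LUM call was lost without siNC replicate 4 or 6 or siZCC replicate 4 (adjusted p 0.0513 to 0.0653) and with the same correction (-0.11, adjusted p 0.0947). Their sum over 12 genes ran from 350.2 to 652 CPM in siNC and from 254 to 459.7 CPM in siZCC. COL1A1 and FN1 were not called: COL1A1 ran from 69.8 to 296 CPM within siNC (edgeR adjusted p 0.329) and FN1 from 179.7 to 378 CPM within siNC (edgeR adjusted p 0.0912). THY1 stood at 63.1 to 73.5 CPM and LUM at 13.4 to 15.1 CPM in siNC, while COL3A1, DCN and PRRX1 were at most 6.27 CPM and COL1A2, PDGFRA, TWIST1, POSTN and FAP at most 1.09 CPM in any library. Endothelial markers had 0 higher and 2 lower of 6 (TEK at -0.75 and CLDN5 at -0.64), and their sum over 7 genes ran from 13.0 to 18.2 CPM in siNC and from 9.2 to 11.3 CPM in siZCC. Striated muscle markers had 0 higher and 1 lower of 4 (ACTA1 at -0.60), with sums over 9 genes of 8.88 to 10.3 CPM in siNC and 8.22 to 9.75 CPM in siZCC. Proliferation markers had 0 higher and 9 lower of 12 (CCNB1 at -0.60 and BIRC5 at -0.51 among them), with sums of 868 to 949 CPM in siNC and 703 to 816 CPM in siZCC. Neuron markers had 1 higher and 6 lower of 12, with NSG1 at -0.26 and DCX at -0.23. Astroglial and radial glial markers had 5 higher and 2 lower of 11, with ALDOC at 0.98 and SOX2 at 0.20. The estimates of this list ran from -0.31 to 0.98, with a median of 0.086. The part of any of these cell types in the change of the contractile and YAP target genes was not tested.

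Within a group the libraries rose and fell together over many members. Among the siNC libraries, replicate 5 was the lowest in 22 of the 32 genes and the highest in 0, while replicates 4 and 6 were the highest in 10 each. Among the siZCC libraries, replicates 4 and 5 were the lowest in 14 and 10 genes, and replicate 3 was the highest in 15. The same counts over all genes are not given here, so the pattern cannot be read as particular to the members. Over the 18 genes called lower, the median deviation from the group's own mean, in log2(CPM + 0.5), was -0.22 in siNC replicate 5, 0.14 and 0.17 in siNC replicates 4 and 6, -0.14 and -0.16 in siZCC replicates 4 and 5, and 0.18 in siZCC replicate 3. ACTA2, TAGLN, CALD1, TPM1, CCN1 and CCN2 each had their lowest pair of siZCC libraries in replicates 4 and 5. ANPEP had its highest there, at 1.42 and 1.24 CPM. ZCCHC17 itself stood at 10.6 CPM in siZCC replicates 2 and 3, at 9.71 and 9.76 CPM in replicates 4 and 5 and at 9.37 CPM in replicate 6, and its part in this spread was not tested. The fibroblast and mesenchyme sum in siNC replicates 1 to 6 was 638, 368, 392, 652, 350.2 and 389 CPM, and in siZCC replicates 1 to 6 it was 446, 393, 459.7, 254, 266 and 319.6 CPM. It was lowest in siNC replicate 5 and in siZCC replicates 4 and 5, as were many members, but siNC replicate 6 was near the middle of its group. Most of this sum came from COL1A1 and FN1, neither of them called. COL1A1 was at 296 CPM in siNC replicate 4 and FN1 at 378 CPM in siNC replicate 1. Whether the sum follows the number of fibroblast or mesenchymal cells was not tested, nor was the part of such cells in the spread.

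**Figure D4:**
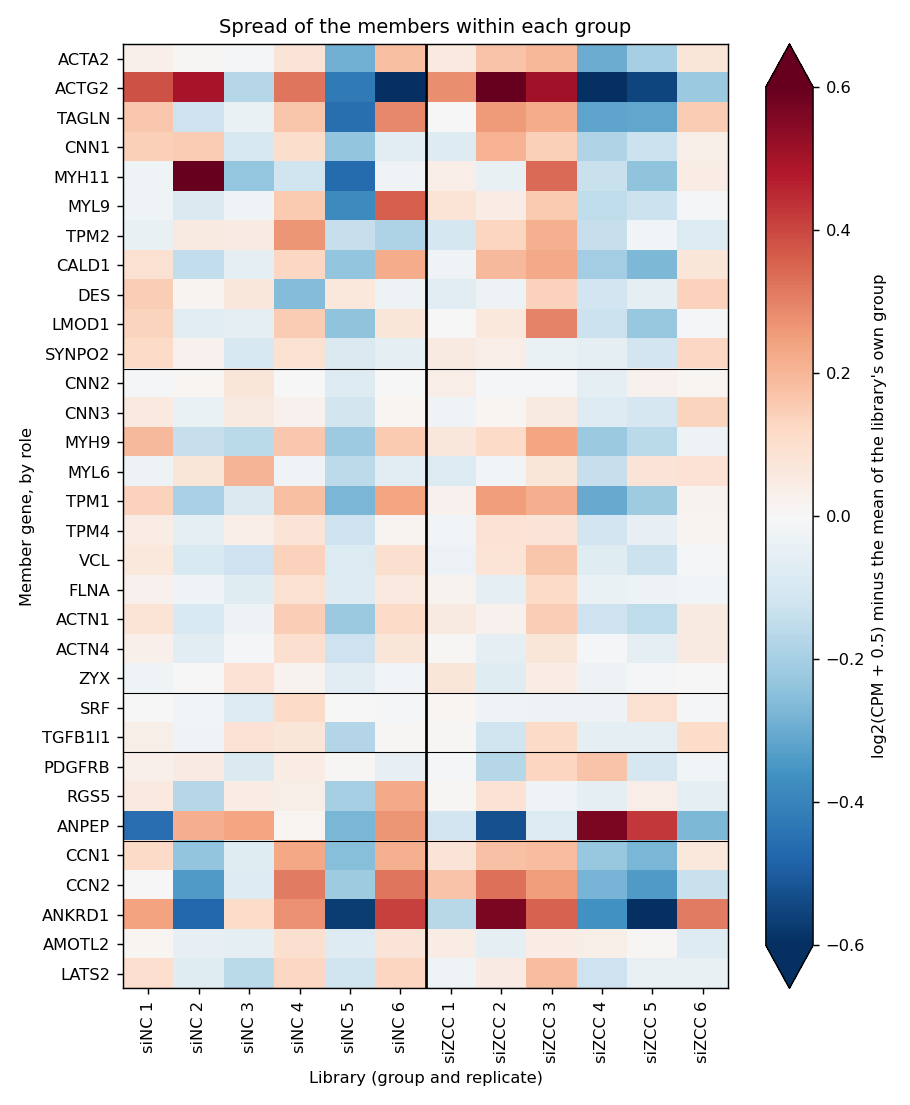
Difference of log2(CPM + 0.5) in each library (columns) from the mean of its own group, for the 32 genes tested (rows, by role); red is above and blue below the group mean, and colours saturate past the scale. The column of siNC replicate 5 is mostly blue, with a median of -0.19 over the 32 genes, and that of siZCC replicate 3 is mostly red, with a median of 0.14.

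The libraries also differed in the cytokine gene IL1B, which stood at 5.23 to 16.0 CPM in 3 libraries of each group (siNC replicates 2, 3 and 6 and siZCC replicates 1, 4 and 5) and at 0.0223 to 0.1 CPM in the other 3. These sides were drawn from the data and are not groups of the study. The comparison was also made within each side. All 19 members called over the 12 libraries had the same direction on both sides, which share no library, though they were chosen on all 12. On the side with IL1B above 1 CPM, 18 members were called (1 higher, 17 lower), with a median over the members of -0.31, against 8.2% of all genes (4.22% higher, 3.98% lower) and a median of -0.00063. On the side below, 8 were called (1 higher, 7 lower), with a median of -0.16, against 6.45% of all genes (3.5% higher, 2.95% lower) and a median of -0.0014. ACTA2 was at -0.78 (SE 0.0847) above and -0.38 (SE 0.0808) below, TAGLN at -1.01 (SE 0.11) and -0.53 (SE 0.129), and ANKRD1 at -1.14 (SE 0.212) and -0.22 (SE 0.19).

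The estimate was more negative above than below for 27 of the 32 genes and for 16 of the 18 genes called lower, SRF and AMOTL2 being the exceptions. Members rose and fell together within libraries, so they are not separate counts of this difference. The same count over all genes is not given here, and the pattern cannot be read as particular to the members. When the difference between the sides was itself tested with an interaction term in edgeR, 0 of 24671 genes (0%) and 0 of the 32 members passed an adjusted p of 0.05, with a lowest adjusted p of 0.935 among the members. At an unadjusted p under 0.05 in that test there were 1177 of the 24671 genes and 7 of the 32 members. A difference in response between the sides was thus not detectable with 3 libraries a group.

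**Figure D5:**
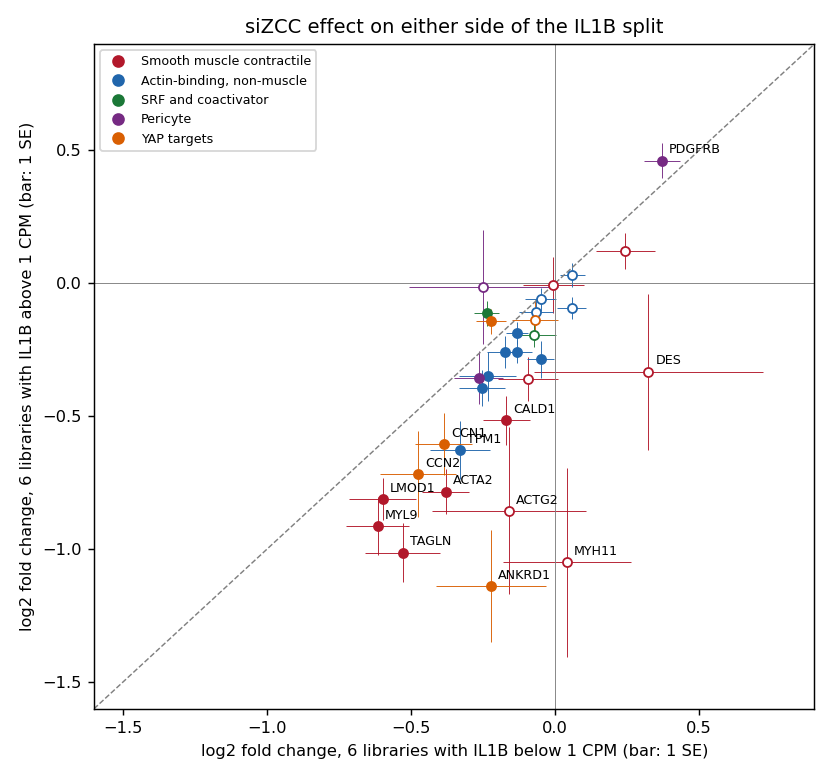
Log2 fold change of siZCC against siNC in the 6 libraries with IL1B below 1 CPM (horizontal axis) and in the 6 with IL1B above 1 CPM (vertical axis), with bars of 1 SE; filled points were called over all 12 libraries and the dashed line marks equal change. Of the 32 genes, 27 lie below the line, among them TAGLN (-0.53 and -1.01), and PDGFRB (0.37 and 0.46) lies above 0 on both axes.

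The positions and sequences of the genes bear on how well they can be counted. In the GENCODE v29 annotation of GRCh38, ACTA2 lies at chr10:88935074-88991339 (minus strand), TAGLN at chr11:117199321-117204782 (plus strand), MYL9 at chr20:36541484-36551447 (plus strand), CCN2 at chr6:131948176-131951373 (minus strand) and PDGFRB at chr5:150113837-150155872 (minus strand). Of the distinct 50-base words in a gene's transcripts, those also found in another gene came to 7.61% for RGS5, shared with a second entry of the same symbol, 7.14% for TPM4 and 4.1% for ACTN1. In every other member they were 2.22% or less, with 0.875% for ACTA2 and 0.2% for ACTG2. On the opposite strand, ACTA2-AS1 covers 17.3% of the exon bases of ACTA2, TPM1-AS 16.1% of TPM1, CAPN12 14.2% of ACTN4, AL513217.1 13.5% of LMOD1 and PCSK7 11.4% of TAGLN. In MYL6, VCL, TPM4, CNN2 and CCN2 such a partner covers from 8.34% (CCN2) to 11.2% (MYL6). The strand setting of the counting is not given in the sources used here, so reads of these pairs cannot be told apart, while MYL9, CALD1, SRF, PDGFRB, CCN1 and ANKRD1 have no such partner.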

How the data were processed

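RNA-seq libraries of total RNA (NEBNext Ultra II Directional kit, per the labels' protocols) were compared, 6 siNC and 6 siZCC. The authors deposited whole-number counts per gene symbol, 1 column per library. The submitters' processing notes list bcl2fastq 2.17, STAR 2.7.6a, featureCounts 2.0.1 and GRCh38, without roles; the annotation and strand setting are not given in the sources used here. Members, gene lists and tests were chosen with earlier results of these data known.

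From the deposited counts, genes were kept by filterByExpr (about 0.0997 CPM in enough libraries), which left 24671 of 59653, including 32 of 33 members. Counts were scaled by TMM and tested with edgeR 4.0.16 (glmQLFit, glmQLFTest, no covariates) in R 4.3.3, with p-values adjusted over all genes kept. SE is the size of the log2 fold change over the square root of F. Within a group, every pair of libraries differed by more than sampling noise, at 5.01 to 25.7 in chi-square over its degrees of freedom. Every member is named, with the 2 called genes of smallest p from each other list (the counts of 1 list, which gave TPM3 and MYLK, are not reported here); MRTFA, MRTFB, YAP1, WWTR1, AXL, F3, RBFOX3, VIM, COL1A1, COL1A2, COL3A1, DCN, FN1, THY1, PRRX1, TWIST1, POSTN, FAP, IL1B and COX4I2 were chosen after their values were seen.

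Alternatives were DESeq2 1.42.0 (size factors, Wald test), upper quartile scaling, no filter or a mean count of at least 50, limma 3.58.1 voom, a block for replicate number, sva 3.50.0 with 1 surrogate variable, and leaving out each library. Chosen after seeing the data were splines on GC content and exon length and the IL1B split. GENCODE v29 gave lengths, positions and 50-base words (94.9% of symbols matched), and RefSeq the promoters. Figures were drawn with matplotlib 3.10.9 in Python 3.11.15.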

Additional observations from a re-analysis of the deposited data

Results flagged for a closer look

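A library was taken to stand apart when its gap to the next exceeded 0.625 of the range of its 6. Over 71 quantities, or 142 sets of 6, this held 5 times, and chance alone gives about 7.1. With 90755953 counts, siNC replicate 4 was the smallest control library, the rest holding 109973707 to 120023356 (gap 0.657 of the range). MYH11 stood at 2.21 CPM in siNC replicate 2, against 0.583 to 0.971 CPM in the other siNC libraries (gap 0.761), and its log2 fold change of -0.53 became -0.18 without that library. SRF was at 58.4 CPM in siZCC replicate 5, against 53.6 to 55.2 CPM in the other siZCC libraries (gap 0.664), and without it SRF changed by -0.19. The same library was highest of its group for BIRC5, a gene of cell division, at 29.7 CPM (others 25.4 to 26.9 CPM, gap 0.652), and for the sum of the 12 proliferation markers, at 816 CPM (others 703 to 744 CPM, gap 0.642).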

How the results depend on the processing

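All 19 members called kept their direction in each of the 24 alternatives. Between 18 and 22 members were called under the other scalings, filters and tools, the block, the surrogate variable, the GC content and length correction, the IL1B factor and the libraries with IL1B above 1 CPM, and 16 (without siZCC replicate 4) to 22 (without siNC replicate 5) on leaving out single libraries. With IL1B below 1 CPM, where 6 libraries enter, 8 members and 21 of the 54 genes examined singly were called, against 41 over all libraries. The counts of all genes were 5481 over all libraries, 2043 and 1602 in the libraries above and below, and 4484 to 5626 on leaving out single libraries. Libraries with the same replicate number did not deviate together (correlations -0.0809 to 0.112). With the replicate block 4902 genes and 22 members were called, and CNN1, TPM2 and TGFB1I1 passed (edgeR adjusted p 0.0449, 0.0472 and 0.0279), in a fit with fewer residual degrees of freedom. No called member was lost with the block. Some members not called over all libraries passed elsewhere too: over the 24 alternatives TGFB1I1 was called in 9, CNN1 in 8, TPM2 in 3, ACTN4 in 2 and FLNA in 1. The estimates of 5 members changed sign, none of them called. SYNPO2 (-0.0034) was 0.0028 with limma voom and ran from -0.0379 to 0.0266 without single libraries. CNN3 (-0.015) was 0.0157 with the GC content and length correction, 0.0573 with IL1B below 1 CPM and ran from -0.0472 to 0.0044 without single libraries. DES (0.046) was -0.33 with IL1B above 1 CPM and ran from -0.11 to 0.16 without single libraries. MYH11 (-0.53) was 0.0408 with IL1B below 1 CPM, and ANPEP (-0.12) ran from -0.32 to 0.0338 without single libraries. For each of these the cause was not tested. Counts were lowest for MYOCD (0 to 5 in a library), DES (6 to 28), ANPEP (42 to 134) and MYH11 (44 to 260); the part of depth in their errors was not tested, and the SE of MYH11 went from 0.263 to 0.167 without siNC replicate 2.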
